A study of Homo sapiens with 6 samples.

Results

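The MYC, MAX and MXD network comprises 10 of the 35410 genes listed in the MACE-Seq data, chosen by name: MYC, MYCN, MAX, MXD1, MXD3, MXD4, MXI1, MNT, MLX and MGA. MACE-Seq reads the 3′ ends of polyadenylated transcripts, so a transcript gives reads from its end and counts need no division by gene length. SEM is an established human cell line of B cell precursor leukemia, labelled as proB cells and described as carrying the fusion KMT2A::AFF1. The comparison is between SEM::EGR3, which carries an EGR3 expression vector, and SEM::mock, which carries the empty vector, with 3 biological replicates of each. Both lines received 1 µg/mL doxycycline for 48 h before RNA was prepared, so the agent that switches on the transgene was also given to the controls. Whether either line is a single clone is not given in the sources used here.

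The proteins of the network share a basic helix-loop-helix leucine zipper and bind the E-box CACGTG as dimers. MAX is the common partner. Dimers of MYC with MAX recruit coactivators and raise transcription of genes for growth, ribosomes and metabolism, whereas dimers of MAX with an MXD protein, with MXI1 or with MNT recruit the SIN3 corepressor and compete for the same sites. MGA joins MAX in a variant Polycomb complex, and MLX, a relative of MAX, pairs with the glucose-sensing factors MLXIP and MLXIPL as well as with MXD1, MXD4 and MNT. In B cell precursors MYC drives proliferation, while MXD genes are known for rising as many cell types leave the cell cycle and mature.

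The libraries held between 5286115 and 6181388 counts in SEM::mock and between 7293092 and 15106018 counts in SEM::EGR3, so low counts are known more precisely in SEM::EGR3. EGR3, the transcription factor encoded by the transgene, had 6 to 10 counts in the SEM::mock libraries and 4952 to 9768 counts in the SEM::EGR3 libraries. The libraries labelled SEM::mock went against the labelled proB identity: of 10 B-lineage markers, 6 (CD79A, PAX5, EBF1, VPREB1, IGLL1 and DNTT) had at most 3 counts in every SEM::mock library, against 1 (DNTT) in SEM::EGR3. CPM denotes counts per 1000000 counts of the tested genes in a library, with the library total scaled by its TMM factor. The summed level of the 10 B-lineage markers was 134 to 158 CPM in SEM::mock and 495 to 527 CPM in SEM::EGR3. Nearly all of the SEM::mock sum was CD24, at 132 to 154 CPM, which went the other way (23.5 CPM on average in SEM::EGR3), while 8 of the 10 markers were higher in SEM::EGR3 without overlap. Of 6 targets of KMT2A fusions, the class of fusion described for SEM, HOXA9 and PROM1 had at most 3 counts in every SEM::mock library. The summed level of the 6 targets was 26.0 to 29.9 CPM in SEM::mock against 815 to 843 CPM in SEM::EGR3. Among erythroid markers, HBB had no more than 3 counts per library in both lines. The near-identical alpha globin genes HBA1 (515 to 1497 CPM) and HBA2 (213 to 1080 CPM) were higher in SEM::EGR3, and ALAS2 (188 to 103 CPM) and KLF1 (161 to 35.8 CPM) were lower, each without overlap. For 6 of 7 myeloid markers the sums were 286 to 297 CPM, with MPO, CD14 and CSF1R at the limit of 3 counts, and 218 to 220 CPM. Here LYZ (155 to 42.7 CPM) and CD33 (124 to 48.1 CPM) were lower and CEBPA (12.4 to 127 CPM) was higher in SEM::EGR3, and in all 3 markers were higher and 2 lower without overlap. For the 6 T cell markers the sums were 60.4 to 66.5 CPM, with CD2 and CD5 at the limit, and 79.9 to 88.5 CPM, with CD3G at the limit. These near sums held an exchange, since 3 markers were higher and 3 lower without overlap, among them CD3D at 58.1 CPM in SEM::mock and 6.26 CPM in SEM::EGR3, and TRAC at 1.21 and 74.7 CPM. No other control line is part of the series. The effect of EGR3 and any other difference between the lines therefore cannot be told apart in each result that follows, and in bulk RNA fewer cells of a type and less RNA per cell cannot be told apart either.

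Most of the network was expressed in both lines, and its members moved in different directions. MYC, MXD1 and MLX were lower in SEM::EGR3, MXD3, MXD4 and MNT were higher, and MAX, MXI1 and MGA did not pass the test. This makes 6 of 9 tested members, or 66.7%, past an adjusted p of 0.05 in the quasi-likelihood test of edgeR, adjusted by Benjamini-Hochberg over 15465 genes, beside 68.5% of all tested genes, so the share of members was near the background. By direction, 3 members were higher and 3 lower, beside 36.5% and 32.0% of all tested genes. The libraries of the 2 lines did not overlap for 6 members, beside 70.1% of all tested genes, with 2 members higher beside 37.5% and 4 lower beside 32.6%. The median log2 fold change of the 9 members was −0.18, beside 0.03 for all tested genes, and the median absolute log2 fold change was 0.35, beside 0.46. MYCN, the remaining member, had too few counts for the test. Nothing in the labels ties the replicates to separate days or thaws, so p-values measure the spread between these libraries.

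**Figure D1:**
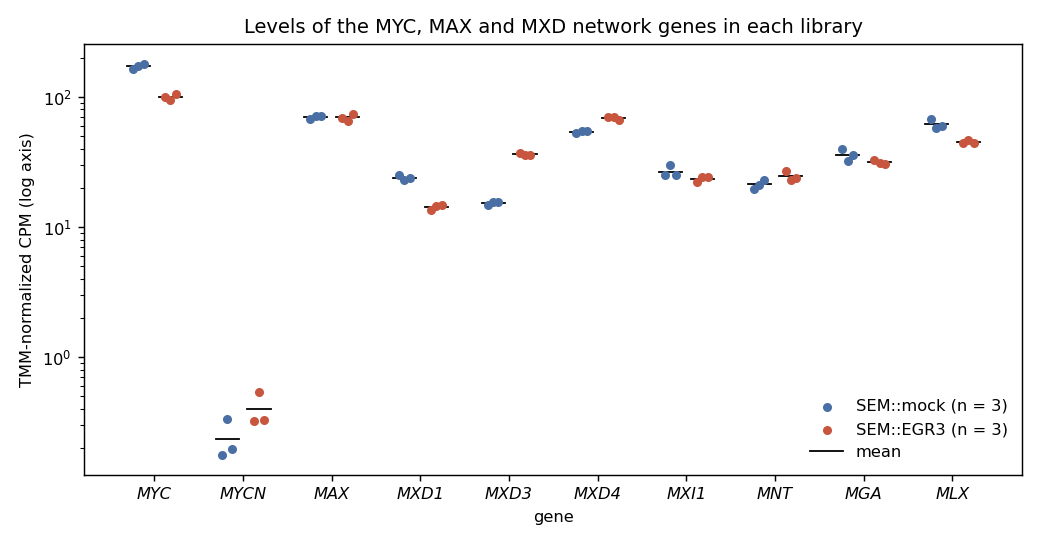
Level of each network gene in each library, in TMM-normalized CPM on a log axis, for 3 SEM::mock and 3 SEM::EGR3 libraries; bars mark the mean. MYC stands above the other genes in both lines, MYCN lies below 1 CPM in all 6 libraries, and the order of MXD1 and MXD3 is turned between the lines.

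The promoters of members with opposite changes show which of them carry the E-box that the network itself binds. RefSeq (GRCh38.p14) gave 14 windows of 250 bases upstream of a transcript start for 9 members, MYC not among them. CACGTG, which reads the same on both strands, stood in 3 of the 14 windows, those of MXD4, MNT and MLX, beside 6.34% of all 35116 windows of this length and 8.41% of the 15085 windows of tested genes. GCGNGGGCG, the motif bound by zinc fingers of the EGR family, was searched on both strands and stood in 2 windows, that of MNT and 1 of MGA, beside 8.41% of all windows and 13.05% of those of tested genes. The 2 motifs do not overlap each other in the windows shown. The windows are printed 5′ to 3′ along the gene with motif letters in capitals, for the 3 members that were higher in SEM::EGR3 and for MLX, which was lower and also holds the E-box. They are MXD3 (chr5:177312753-177313002, minus strand), MXD4 (chr4:2262110-2262359, minus strand), MNT (chr17:2401061-2401310, minus strand) and MLX (chr17:42566850-42567099, plus strand).
MXD3: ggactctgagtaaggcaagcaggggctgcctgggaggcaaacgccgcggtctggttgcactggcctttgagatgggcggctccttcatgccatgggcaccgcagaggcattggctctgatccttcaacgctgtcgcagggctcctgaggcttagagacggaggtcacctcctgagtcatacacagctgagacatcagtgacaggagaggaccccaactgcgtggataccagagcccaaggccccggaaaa
MXD4: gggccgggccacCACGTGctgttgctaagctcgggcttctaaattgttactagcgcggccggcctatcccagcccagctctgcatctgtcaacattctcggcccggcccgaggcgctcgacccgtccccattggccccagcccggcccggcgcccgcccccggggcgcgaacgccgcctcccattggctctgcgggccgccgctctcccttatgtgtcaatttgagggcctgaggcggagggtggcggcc
MNT: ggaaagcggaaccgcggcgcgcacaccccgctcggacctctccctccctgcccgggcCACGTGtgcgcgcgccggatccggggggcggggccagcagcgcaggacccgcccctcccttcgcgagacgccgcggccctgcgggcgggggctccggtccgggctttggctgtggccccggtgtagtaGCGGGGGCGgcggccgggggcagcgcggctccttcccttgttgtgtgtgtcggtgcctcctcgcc
MLX: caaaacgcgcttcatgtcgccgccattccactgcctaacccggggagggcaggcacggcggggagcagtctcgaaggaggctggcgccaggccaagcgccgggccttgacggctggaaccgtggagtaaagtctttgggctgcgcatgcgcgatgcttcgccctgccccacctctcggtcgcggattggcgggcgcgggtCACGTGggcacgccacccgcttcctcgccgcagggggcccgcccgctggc
The E-box began 238 bases before the start of MXD4, 193 bases before that of MNT and 50 bases before that of MLX. In MNT the GCGNGGGCG match began 65 bases before the start. The window of MXD3, the member with the largest fitted difference, held neither string of letters. A match is only a description of the sequence, and of the 3 genes with the E-box 2 were higher and 1 was lower. The libraries of MNT overlapped between the lines, and its call depended on the setting, as given below.

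MYC (ENSG00000136997, GRCh38 chromosome 8, 127735434 to 127741434, plus strand), the central activator, was lower in SEM::EGR3. It had 920, 1027 and 918 counts in SEM::mock replicates 1 to 3, against 1545, 699 and 943 in the matching order for SEM::EGR3. Scaled for depth, these were 162.6, 172.0 and 180.0 CPM in SEM::mock and 99.7, 94.2 and 104.2 CPM in SEM::EGR3. Every SEM::EGR3 library was thus below every SEM::mock library, although the deepest SEM::EGR3 library held the most MYC counts. The mean level fell from 172 ± 8.74 CPM to 99.3 ± 5.04 CPM (SD, n = 3), a log2 fold change of −0.79 ± 0.06 (SE, adjusted p = 1.86e-11, edgeR). Leaving out each library in turn gave −0.84 to −0.75. Of all tested genes, 32.3% had a larger absolute log2 fold change than MYC. MYC was nevertheless the most abundant member in each of the 6 libraries.

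MYCN (ENSG00000134323, chromosome 2, 15940564 to 15947007, plus strand), the relative of MYC known from neuroblastoma and early progenitors, was near the detection limit. It had raw counts of 1, 2 and 1 in SEM::mock and of 5, 4 and 3 in SEM::EGR3. At such counts a single read moves the value. The CPM levels overlapped between the lines, and no fold change is given. MYCL, the third MYC gene, was low and fell from 7.56 ± 1.91 CPM to 2.00 ± 0.117 CPM (SD, n = 3), a log2 fold change of −1.93 ± 0.23 (SE, adjusted p = 6.10e-08, edgeR). MYCL had raw counts of 55, 41 and 31 in SEM::mock and of 29, 15 and 19 in SEM::EGR3. PVT1, a long noncoding RNA whose gene follows MYC on chromosome 8 (127794533 to 128101253, plus strand), fell as well, from 36.8 ± 0.731 CPM to 9.58 ± 2.15 CPM (SD, n = 3; log2 fold change −1.89 ± 0.12, SE, adjusted p = 6.97e-13, edgeR). MYCL and PVT1 were the tested genes in a list of 6 neighbours and relatives, and the other 4 (CASC11, POU5F1B, MYCNOS and MYCNUT) had too few counts for the test.

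MAX (ENSG00000125952, chromosome 14, 65006174 to 65102695, minus strand), the partner shared by MYC, MXD proteins, MNT and MGA, showed no detectable difference. Its level was 67.9, 71.0 and 71.6 CPM in SEM::mock and 69.3, 65.2 and 73.9 CPM in SEM::EGR3. The ranges overlapped, with both the lowest and the highest library in SEM::EGR3. The fitted log2 fold change was −0.01 (95% interval −0.15 to 0.13, adjusted p = 0.890, edgeR), and it took the other sign, up to 0.07, without normalization factors, with upper-quartile factors, with at least 10 counts in every library and without SEM::EGR3 replicate 2. FNTB, which overlaps MAX on the opposite strand, had 12.2 CPM in SEM::mock and 18.1 CPM in SEM::EGR3. Whether the counting used strand is not given in the sources used here, so reads of overlapping genes may be assigned to either or left out.

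The 4 genes of the MXD group split. These antagonists of MYC compete for MAX and bring the SIN3 corepressor to E-boxes. MXD3 (ENSG00000213347, chromosome 5, 177301461 to 177312757, minus strand), a family member linked to cells in S phase, had raw counts of 83, 93 and 80 in SEM::mock and of 575, 266 and 324 in SEM::EGR3. This was 14.7, 15.6 and 15.7 CPM against 37.1, 35.8 and 35.8 CPM, with every SEM::EGR3 library above every SEM::mock library. MXD3 was 2.37-fold higher on the fitted scale (log2 fold change 1.25 ± 0.10, SE, adjusted p = 2.64e-11, edgeR). It was the only member whose absolute log2 fold change reached 1, beside 25.2% of all tested genes that passed the test with such a change, and 19.4% of all tested genes had a larger absolute log2 fold change. Its 3′ end overlaps RAB24 on the same strand, which had 2.62 CPM in SEM::mock and 2.58 CPM in SEM::EGR3, and its body overlaps PRELID1 on the opposite strand, which fell from 301 to 209 CPM. Their part in the MXD3 counts was not tested.

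MXD4 (ENSG00000123933, chromosome 4, 2247432 to 2262294, minus strand), the most abundant MXD gene in both lines, was also higher. Its level was 52.7, 54.4 and 55.1 CPM in SEM::mock and 70.2, 69.6 and 66.0 CPM in SEM::EGR3. The groups did not overlap, and the log2 fold change came to 0.35 ± 0.07 (SE, adjusted p = 7.28e-05, edgeR). MXD1 (ENSG00000059728, chromosome 2, 69897688 to 69942945, plus strand), the founding MXD gene and a marker of differentiation in myeloid and other cells, went the other way. It had 24.9, 23.1 and 23.9 CPM in SEM::mock and 13.4, 14.5 and 14.8 CPM in SEM::EGR3. All SEM::EGR3 libraries were lower, with a log2 fold change of −0.76 ± 0.11 (SE, adjusted p = 7.43e-07, edgeR), close in size to that of MYC. SNRNP27, which overlaps MXD1 on the same strand, fell less, with a log2 fold change of −0.22 ± 0.07 (SE). MXI1 (ENSG00000119950, chromosome 10, 110207605 to 110287365, plus strand), also known as MXD2, had 25.1, 29.8 and 25.1 CPM in SEM::mock and 22.0, 24.2 and 24.2 CPM in SEM::EGR3. Its libraries did not overlap, but the log2 fold change of −0.20 (95% interval −0.41 to 0.00) had an adjusted p of 0.0764 (edgeR). Without SEM::mock replicate 1 the log2 fold change was −0.26 (adjusted p = 0.0418, edgeR), and without SEM::mock replicate 3 it was also −0.26 (adjusted p = 0.0498), whereas it was −0.12 (adjusted p = 0.344) without SEM::mock replicate 2 and −0.14 (adjusted p = 0.286) without SEM::EGR3 replicate 1. It was also −0.12 (adjusted p = 0.282) without normalization factors.

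MNT and MGA, the large MAX partners outside the MXD group, moved little. MNT (ENSG00000070444, chromosome 17, 2384060 to 2401118, minus strand), a broadly expressed MYC antagonist, had 19.6, 20.9 and 23.1 CPM in SEM::mock and 27.0, 23.0 and 24.0 CPM in SEM::EGR3. The highest SEM::mock library lay just above the lowest SEM::EGR3 library. The fitted log2 fold change was 0.24 ± 0.10 (SE) with an adjusted p of 0.0438 (edgeR), and the call depended on the setting, as the adjusted p was 0.153 by DESeq2, 0.0773 without a filter on low counts, 0.209 without SEM::mock replicate 1, 0.118 without SEM::mock replicate 2 and 0.243 without SEM::EGR3 replicate 1, where the log2 fold change was 0.16. MGA (ENSG00000174197, chromosome 15, 41621224 to 41773081, plus strand), which carries a T-box domain beside its helix-loop-helix and is a tumor suppressor lost in some leukemias and lymphomas, had 39.8, 32.3 and 35.5 CPM in SEM::mock and 32.6, 31.3 and 30.4 CPM in SEM::EGR3. The lowest SEM::mock library lay just below the highest SEM::EGR3 library. The log2 fold change of MGA was −0.18 ± 0.09 (SE, adjusted p = 0.0681, edgeR), and without SEM::mock replicate 2 it was −0.27 (adjusted p = 0.0171), whereas it was −0.12 (adjusted p = 0.292) without SEM::mock replicate 1 and −0.11 (adjusted p = 0.304) without normalization factors.

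**Figure D2:**
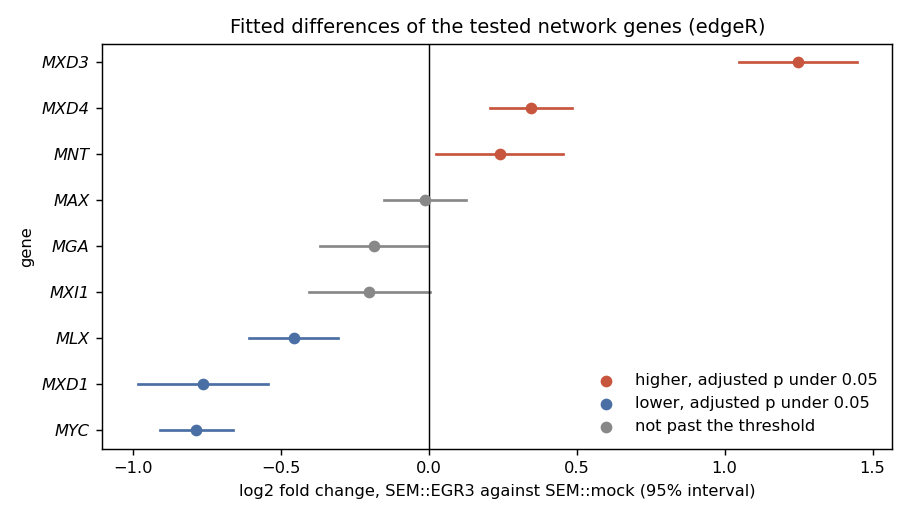
Fitted log2 fold change of SEM::EGR3 against SEM::mock for the 9 tested network genes with 95% intervals from edgeR (3 libraries per line), coloured by call at an adjusted p of 0.05. MXD3 lies highest at 1.25, MYC and MXD1 lie lowest at −0.79 and −0.76, and the interval of MAX spans 0.

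MLX (ENSG00000108788, chromosome 17, 42567068 to 42573239, plus strand), the dimer partner of the glucose-sensing factors, was lower in SEM::EGR3. It had 67.0, 58.0 and 59.4 CPM in SEM::mock and 44.1, 46.5 and 44.1 CPM in SEM::EGR3. The groups were apart, with a log2 fold change of −0.46 ± 0.07 (SE, adjusted p = 6.06e-06, edgeR). PSMC3IP overlaps the 3′ end of MLX on the opposite strand and fell to a like extent, from 47.0 to 35.01 CPM (log2 fold change −0.42 ± 0.08, SE), and its part in the MLX counts was not tested. The 2 large partners of MLX moved in opposite directions. MLXIP (also MondoA) fell from 223 ± 21.6 CPM to 119 ± 0.647 CPM (SD, n = 3; log2 fold change −0.91 ± 0.06, SE, adjusted p = 3.29e-12, edgeR). MLXIPL (also ChREBP), the carbohydrate response factor of liver and fat, rose from 1.64 ± 0.909 CPM to 36.0 ± 1.6 CPM (SD, n = 3; log2 fold change 4.46 ± 0.19, SE, adjusted p = 1.73e-16, edgeR). MLXIPL had raw counts of 14, 4 and 9 in SEM::mock and of 543, 281 and 318 in SEM::EGR3. MLXIP stayed the more abundant of the 2 in every library. TXNIP, an inhibitor of glucose uptake and a target of these factors, had 150 ± 14.1 CPM in SEM::mock and 153 ± 6.40 CPM in SEM::EGR3 (SD, n = 3), a log2 fold change of 0.03 (95% interval −0.10 to 0.16, adjusted p = 0.722, edgeR) that was −0.07 without SEM::mock replicate 1. ARRDC4, a related arrestin and target of the same factors, had 30.2 ± 9.51 CPM and 37.4 ± 2.20 CPM (SD, n = 3) with overlapping libraries. Its log2 fold change of 0.31 had an adjusted p of 0.0319 (edgeR), which was 0.298 by DESeq2, 0.470 without SEM::mock replicate 1, 0.0946 without SEM::mock replicate 2 and 0.0569 without SEM::EGR3 replicate 2. The log2 fold change of ARRDC4 ranged from 0.092 without SEM::mock replicate 1 to 0.54 without SEM::mock replicate 3 (adjusted p = 0.00037).

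The order of the levels differed between the lines. Levels of different genes are compared here as 3′ end counts, which need no division by length. In SEM::mock the order of mean CPM from high to low was MYC, MAX, MLX, MXD4, MGA, MXI1, MXD1, MNT, MXD3 and MYCN, and only the neighbours MXD1 and MNT overlapped in their libraries. In SEM::EGR3 it was MYC, MAX, MXD4, MLX, MXD3, MGA, MNT, MXI1, MXD1 and MYCN, with overlaps between MAX and MXD4 and between MNT and MXI1. MXD3 thus went from the lowest of the well-expressed members to a place above MGA, MNT, MXI1 and MXD1, and MXD4 from below MLX to the range of MAX. How well a 3′ end is read can differ between genes, which limits such an order within a line more than a comparison of a gene between lines.

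Counts of MYC and of its antagonists were also set against each other within each library, where no normalization between libraries enters. MYC plus MYCN counts per summed count of MXD1, MXD3, MXD4, MXI1, MNT and MGA were 0.921, 0.978 and 1.01 in SEM::mock and 0.494, 0.477 and 0.536 in SEM::EGR3. MYC plus MYCN counts were thus about as many as those of the 6 antagonists together in SEM::mock, and all SEM::EGR3 libraries lay lower. The mean ratio was 0.970 ± 0.0450 in SEM::mock and 0.502 ± 0.0302 in SEM::EGR3 (SD, n = 3), a 1.93-fold difference with p = 0.1 in the exact two-sided permutation test, the smallest that 3 against 3 libraries can give. Per MAX count, MYC plus MYCN gave 2.40, 2.43 and 2.52 in SEM::mock and 1.44, 1.45 and 1.41 in SEM::EGR3, without overlap (exact permutation p = 0.1). The summed antagonist counts per MAX count were 2.53 ± 0.0678 in SEM::mock and 2.87 ± 0.208 in SEM::EGR3 (SD, n = 3; exact permutation p = 0.1). Adjusted over the 6 ratios computed in this family, each p stays 0.1. These are ratios of 3′ end counts, which can be read unequally between genes, and protein levels were not measured in these data.

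The make-up of the antagonist counts was different too. MXD3 held 8.30% to 8.84% of the summed counts of the 6 antagonists in SEM::mock and 18.05% to 18.35% in SEM::EGR3. MXD1 held 13.1% to 14.1% in SEM::mock and 6.63% to 7.59% in SEM::EGR3. The order of these 2 genes was therefore reversed between the lines, and in no library did their shares come near those of the other line. MXD4 was the largest part in both lines, with 29.8% to 30.9% in SEM::mock and 33.8% to 35.1% in SEM::EGR3. MGA went from 18.3% to 22.5% in SEM::mock to 15.6% to 16.1% in SEM::EGR3, and MXI1 from 14.1% to 16.9% to 10.9% to 12.4%. MNT overlapped, with 11.1% to 12.97% and 11.6% to 13.4% (exact permutation p = 0.6), while each of the other 5 shares was apart between the lines (exact permutation p = 0.1 each, the smallest possible, and 0.12 adjusted over the 6 shares). The counts of MXD3 plus MXD4 per count of MXD1 plus MXI1 were 1.37 ± 0.0643 in SEM::mock and 2.79 ± 0.219 in SEM::EGR3 (SD, n = 3; exact permutation p = 0.1).

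**Figure D3:**
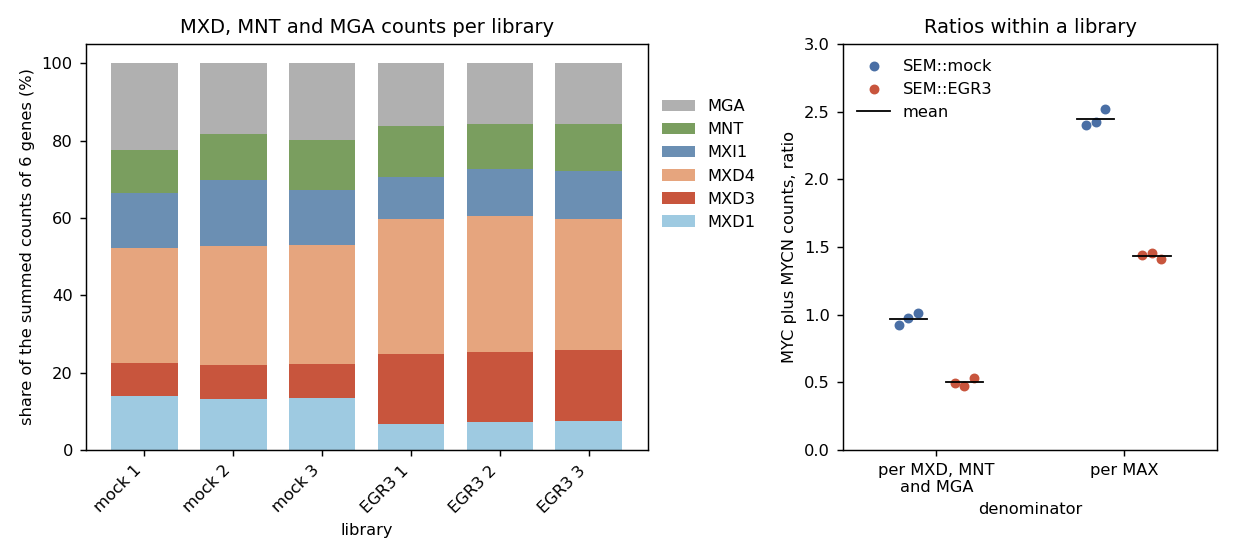
Left, share of each of 6 antagonist genes in their summed counts (%) for each library; right, ratio of MYC plus MYCN counts to those 6 genes and to MAX in each library, with the mean as a bar. The share of MXD3 is 8.30% to 8.84% in SEM::mock and 18.05% to 18.35% in SEM::EGR3, and both ratios are lower in all 3 SEM::EGR3 libraries.

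The corepressors and coactivators that the network recruits were looked at through lists of their subunits, written with earlier results of these data known. In the SIN3 complex, the histone deacetylase assembly bound by MXD proteins and MNT, 7 of 14 genes were higher, 3 lower and 4 not past the test, with a median log2 fold change of 0.17 beside 0.03 for all tested genes. The share past the test was 71.4%, near the 68.5% of all tested genes (36.5% higher and 32.0% lower), and this background holds for each list that follows. ING2, which reads methylated histone H3, rose from 18.04 to 44.0 CPM (log2 fold change 1.28 ± 0.09, where ± gives the SE here and for the genes that follow), and SAP30, a core SIN3 subunit, rose from 33.7 to 52.6 CPM (0.64 ± 0.09). HDAC1, a catalytic deacetylase, fell from 204 to 133 CPM (−0.61 ± 0.06), and SIN3B, a scaffold, fell from 34.4 to 27.6 CPM (−0.32 ± 0.10). Among these 4 genes the largest adjusted p was 0.00668, for SIN3B. In the Polycomb complex that holds MGA, 5 of 10 genes were higher, 2 lower and 3 not past the test (70.0% past, beside 68.5% of all tested genes), with a median log2 fold change of 0.11. RYBP and YAF2, alternative subunits that bind the RING proteins, rose by 0.80 ± 0.08 and 0.46 ± 0.08 on the log2 scale. RNF2, the ubiquitin ligase of the complex, fell by 0.48 (SE 0.08) and CBX3, a reader of methylated histone H3, fell by 0.38 (SE 0.05) on the same scale, and the largest adjusted p of these 4 genes was 1.46e-05, for YAF2.

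Among 14 cofactors of MYC, 6 were higher, 3 lower and 5 not past the test (64.3% past, beside 68.5% of all tested genes), with a median log2 fold change of 0.11, and without SEM::mock replicate 1 the counts were 3 higher and 4 lower. KAT2A, the acetyltransferase GCN5, rose from 57.9 to 78.9 CPM (log2 fold change 0.45 ± 0.07), and ACTL6A, a subunit of chromatin remodelers, rose from 44.2 to 55.0 CPM (0.32 ± 0.08). CCNT1, the cyclin of the elongation factor P-TEFb, fell from 60.6 to 47.9 CPM (−0.33 ± 0.08). RUVBL2, an ATPase of the same remodelers, fell from 136 to 122 CPM (−0.17 ± 0.06, adjusted p = 0.0124, edgeR), a call lost without normalization factors (adjusted p = 0.175), with at least 10 counts in every library (0.0770) and without SEM::EGR3 replicate 1 (0.0750). Of 14 genes that set the stability or activity of the MYC protein, 6 were higher, 6 lower and 2 not past the test (85.7% past, beside 68.5% of all tested genes), with a median log2 fold change of 0.11. This share depended on the setting: with a replicate term or without a filter on low counts, 4 were higher and 5 lower. The same counts came without SEM::mock replicate 1 and without SEM::EGR3 replicate 3. HUWE1, a ubiquitin ligase that acts on MYC, rose from 95.2 to 152 CPM (0.67 ± 0.06), and CIP2A, an inhibitor of the phosphatase PP2A that stabilizes MYC, rose from 14.8 to 20.3 CPM (0.46 ± 0.12). USP28, a deubiquitinase that counters FBXW7, fell from 29.3 to 14.4 CPM (−1.01 ± 0.11), and PIM2, a kinase that stabilizes MYC, fell from 295 to 162 CPM (−0.86 ± 0.06). The largest adjusted p of these 4 genes was 0.00156, for CIP2A.

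Well-known targets of MYC were found on both sides of the comparison. Of 26 genes that MYC is known to activate, 6 were higher, 10 lower and 10 not past the test (61.5% past, beside 68.5% of all tested genes, of which 36.5% were higher and 32.0% lower), with a median log2 fold change of −0.06 that was 0.02 without normalization factors, where 9 genes were higher and 10 lower. SRM, the spermidine synthase, fell from 355 to 189 CPM (log2 fold change −0.90 ± 0.06), and LDHA, the lactate dehydrogenase, fell from 617 to 397 CPM (−0.63 ± 0.07). CAD, which starts pyrimidine synthesis, rose from 96.6 to 126 CPM (0.38 ± 0.06), and PTMA, prothymosin alpha, rose from 226 to 314 CPM (0.48 ± 0.07). PTMA has many processed pseudogenes that can share its reads, so its count is uncertain. The largest adjusted p of these 4 genes was 9.72e-06, for CAD. Of 10 genes that MYC is known to repress, 9 were tested, of which 5 were higher and 4 lower (beside 36.5% and 32.0% of all tested genes), with a median log2 fold change of 0.56. The share past the test was 100% of those 9, beside 68.5% of all tested genes, in a list written with earlier results of these data known. CEBPA, a myeloid transcription factor that is also among the myeloid markers above, rose from 12.4 to 127 CPM (3.35 ± 0.08), and NDRG1, a stress and differentiation gene, rose from 38.8 to 75.7 CPM (0.95 ± 0.09). THBS1, an inhibitor of angiogenesis, fell from 28.1 to 8.77 CPM (−1.72 ± 0.12), and CDKN1C, the cyclin-dependent kinase inhibitor p57, fell from 107 to 48.5 CPM (−1.16 ± 0.08). The largest adjusted p of these 4 genes was 9.38e-10, for NDRG1.

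**Figure D4:**
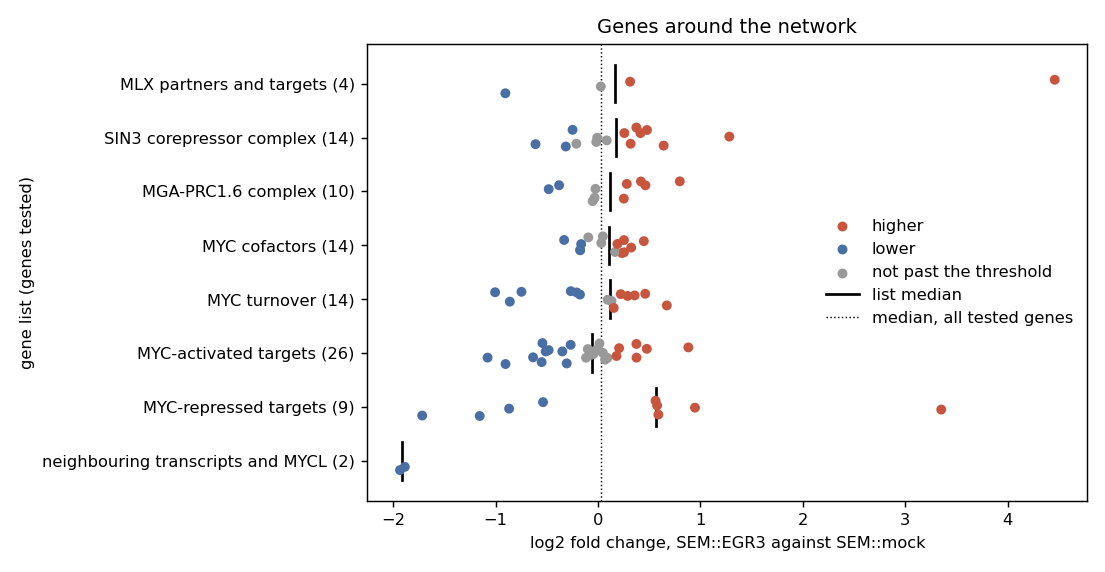
Fitted log2 fold change of SEM::EGR3 against SEM::mock for each tested gene of 8 lists around the network (number tested in brackets), coloured by call at an adjusted p of 0.05; bars mark list medians and the dotted line the median of all tested genes. Each list with at least 4 tested genes holds genes on both sides of 0.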

How the data were processed

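RNA of 3 SEM::mock and 3 SEM::EGR3 libraries was measured by MACE-Seq. The table deposited by the authors holds raw counts (whole numbers of reads per gene). The submitters' processing notes name bcl2fastq, Bowtie2, HTSeq and GRCh38, without versions. The annotation, the use of strand and the removal of PCR duplicates are not given in the sources used here. The column headings spell the transgene ERG3 and were read as SEM::EGR3. The 12 further columns of scaled values per sample, pooled means and the authors' own comparison (fold changes and p-values) were not used.

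The counts were fitted with edgeR 4.0.16 under R 4.3.3 (filterByExpr, TMM, glmQLFit, glmQLFTest, no further term), with Benjamini-Hochberg adjustment over 15465 genes. The procedure was tested on simulated data. Few genes were changed in that simulation, so it did not cover data in which most genes pass, as here. Library totals ranged from 5286115 to 15106018 listed counts. A limit of 3 counts covers counting error only. Ratios were tested by exact permutation in scipy 1.17.1. Positions are from GENCODE release 29, and promoter windows from RefSeq. Members and lists were chosen with earlier results of these data known. In each list, up to 2 genes that rose and 2 that fell were named, by largest absolute log2 fold change among genes with an adjusted p under 0.05, no overlap and at least 100 mean counts in the higher line, plus all tested genes of lists of 6 or fewer. Alternatives were DESeq2 1.42.0, other normalization factors and filters, a replicate term, other ratio denominators, a minimum absolute log2 fold change of 1, and leaving out each library.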

Additional observations from a re-analysis of the deposited data

How the results depend on the processing

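With 3 libraries per line, MNT, MXI1 and MGA lay close to the threshold on either side, and the depth leaves MYCN unmeasured. Across the alternatives other than a minimum fold change, MYC, MXD1, MXD3, MXD4 and MLX stayed past the threshold in the same direction. A minimum absolute log2 fold change of 1 left 3896 genes and 1 member, MXD3. Leaving out each library in turn gave 9938 to 10499 genes and 5 to 7 members past the threshold. The log2 fold change of MAX was reversed without normalization factors (0.067), with upper-quartile factors (0.0038) and with at least 10 counts in every library (0.039), and ranged from −0.053 to 0.028 over left-out libraries. That of TXNIP ranged from −0.066 to 0.069 over left-out libraries. The cause was not tested. Leaving out the normalization factors moved the median of all genes by 0.08. Without a filter on low counts, 34056 genes were fitted and the median moved by 0.19. The ratio of MYC plus MYCN to the antagonists was −0.998 to −0.913 on the log2 scale over left-out libraries and −1.03 both with the MXD genes and MXI1 alone and without MGA.

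Libraries with the same replicate number did not deviate together (correlations of −0.11, −0.06 and −0.03), and the main fit used the numbers as sample names only. With 3 libraries per line, such correlations cannot show whether libraries of the same number were prepared together. With the replicate block, 10081 genes and 5 members passed. Of the members, MNT lost its call (log2 fold change 0.23, adjusted p = 0.0841, edgeR), and no other named gene changed sides.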
